A study of Zea mays with 6 samples.

Results

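Starch genes of maize (Zea mays) leaves were described by their transcript levels under 2 soil water regimes. The genes were all rows of the deposited table whose gene name or description held 1 of 11 words for starch enzymes, such as starch, amylase, isoamylase, pullulanase, maltose, phosphoglucomutase or glucan water. That gave 77 of the 45953 genes in the table. The LW group of 3 libraries came from leaves of droughted plants that drew water continuously by negative pressure irrigation, and the CW group of 3 libraries from leaves of plants in moist soil under drip irrigation. Soil water and irrigation method differed together, so their effects cannot be told apart. The sources used here give no genotype, plant age or time of harvest. Nothing says that the replicates were separate plants, so a p-value reflects how much these libraries vary, which may be technical.

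Leaves store part of the carbon they fix by day as starch in the chloroplast and take it down again at night. ADP-glucose pyrophosphorylase makes the sugar donor, starch synthases lengthen glucan chains, and branching and debranching enzymes give amylopectin its shape. For breakdown, glucan water dikinase and phosphoglucan water dikinase phosphorylate the granule surface, beta-amylases release maltose, a maltose transporter carries it out of the plastid, and the disproportionating enzymes DPE1 and DPE2 process short glucans and maltose. Maize endosperm has its own forms of several synthesis enzymes, known from kernel mutants such as shrunken2, brittle endosperm2, waxy1 and amylose extender1. Starch in maize leaves is made chiefly in bundle sheath cells.

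Of the 77 genes, 62 had a count in at least 1 library and 58 had enough counts to be tested. With edgeR's quasi-likelihood test and Benjamini-Hochberg adjustment over all 24704 genes tested, 5 of the 58 were lower in LW, 0 were higher and 53 did not pass at an adjusted p under 0.05. The 5 were starch branching enzyme3, starch branching enzyme1, the glucanotransferase DPE1 and a pair of beta-amylases, and they fell by 2.59-fold to 6.05-fold. Those 5 are 8.62% of the genes tested here. Over all genes tested, 5.23% were called, 2.40% as lower and 2.84% as higher. At an unadjusted p under 0.05, 18 starch genes were lower and 1 was higher, against 2816 lower and 3287 higher among all genes. The median log2 fold change of the 58 was -0.63, beside 0.06 over all genes tested, and 72.4% of them had a negative value, beside 47.4% of all genes.

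The number of calls moved with the libraries and the tool, over all genes as well as here. Without LW replicate 1, 2 or 3 or without CW replicate 2 edgeR called 0 of the 58, and over all 24704 genes it called at most 5 higher and 1 lower in any of these 4 fits. In the same fits 17, 12, 13 and 17 of the 58 were under 0.05 before adjustment. Without CW replicate 1 the only call was another beta-amylase, Zm00001d014083, beside 172 higher and 70 lower over all genes. Without CW replicate 3 all 5 calls stood and pullulanase-type starch debranching enzyme1 joined them, while calls over all genes went from 701 higher and 592 lower to 1678 and 1287. With 1 library left out, the log2 change stayed between -1.70 and -1.38 for DPE1, -1.76 and -1.36 for branching enzyme3, -1.54 and -1.15 for branching enzyme1, -1.72 and -1.18 for Beta-amylase 3 (Zm00001d009016) and -2.92 and -2.34 for Beta-amylase Zm00001d029164. DESeq2 called 15 of the 58 lower, 25.9%, and 0 higher, beside 8.24% lower and 9.80% higher over all genes. These were the 5 genes above and 10 more: 3 beta-amylases, 2 starch synthases, and 1 gene each of pyrophosphorylase, debranching enzyme, glucan phosphorylation, phosphorylase and phosphoglucomutase. In the classes with no edgeR call, the genes under 0.05 before adjustment were 3 synthases, 2 phosphoglucomutases and 1 gene each of pyrophosphorylase, debranching enzyme and glucan phosphorylation, and 0 alpha-amylases or maltose transporters.

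Levels are given as scaled FPKM, the deposited FPKM (fragments per kilobase of transcript, relative to library depth) times 1 factor per library so that they follow the scaling of the test. The factor was 0.827 to 0.956 in LW and 1.09 to 1.17 in CW. It therefore lowers every LW value and raises every CW value relative to the deposited FPKM. The groups did not overlap for 20 of the 58 genes. In 18 genes, 31.0% of those tested, every LW value was below every CW value, beside 14.9% of all genes tested. In 2 genes, 3.45%, every LW value was above every CW value, beside 19.7% of all genes. The 18 were all among the 41 genes with a mean level of 1 or more. Of these 41, 36 had a negative log2 fold change, and their median was -0.80. The 17 tested genes with lower levels had a median of 0.33, and 11 of them had a positive value. Medians over all genes at these levels were not worked out. With no filter on low counts the edgeR median over all genes was 0.20, against 0.06 with the filter.

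**Figure D1:**
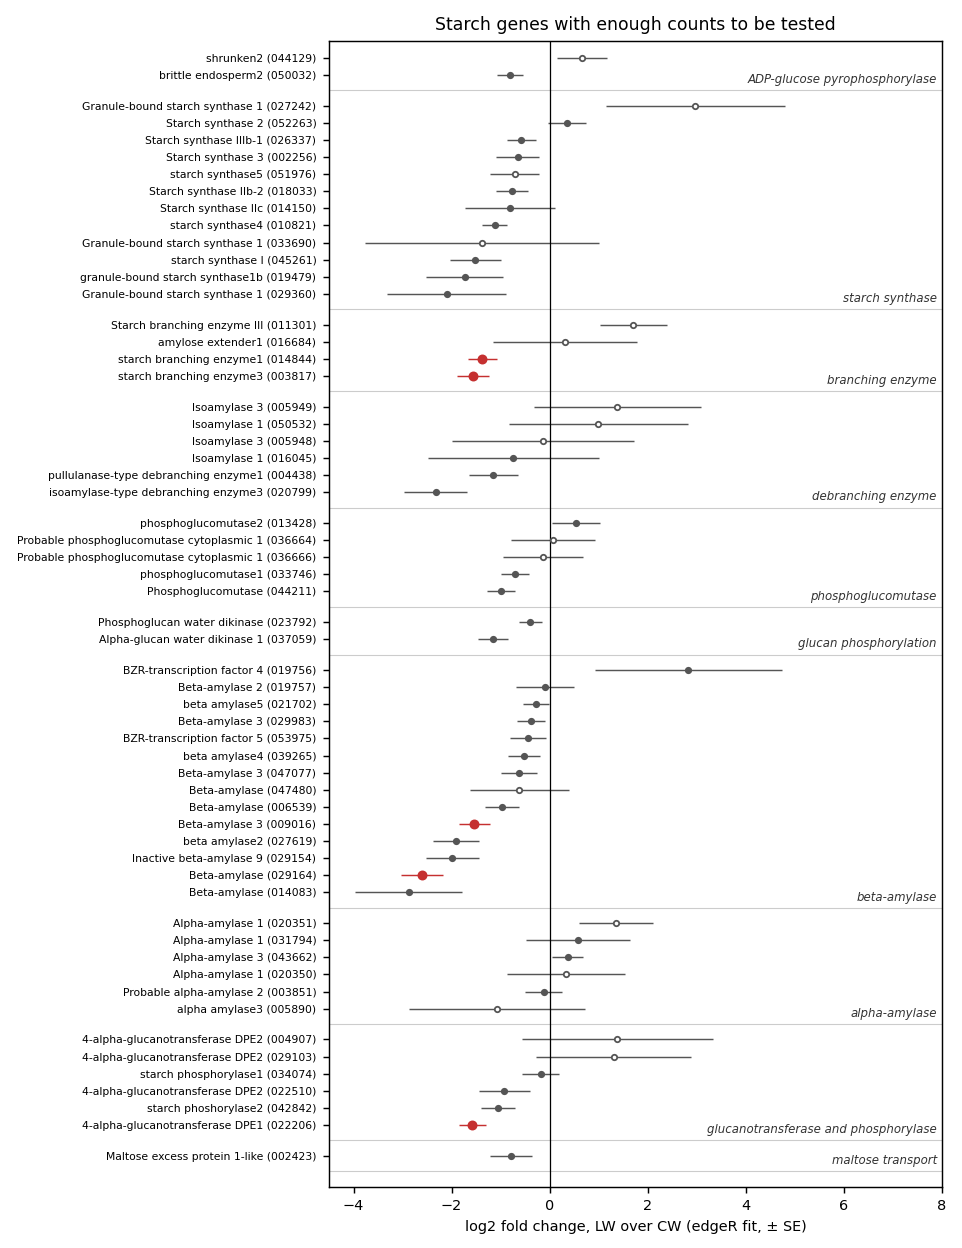
Log2 fold change of LW over CW for each of the 58 starch genes tested, with its standard error from the edgeR fit, grouped by enzyme role (x axis in log2 units; the 6 digits after a name end its gene identifier). Red points are the 5 genes called lower, and open points are genes with a mean level below 1 scaled FPKM, which lie on both sides of 0 with wide errors.

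The summed level of the 77 genes was 1420, 1312 and 1449 scaled FPKM in CW replicates 1 to 3. In LW replicates 1 to 3 it was 1021, 613 and 740. All LW sums lay below all CW sums, and the LW mean was 0.568 of the CW mean (791 ± 209 against 1394 ± 72.2, SD, n = 3 each). The size of this ratio depends on the scaling, which lowers LW values and raises CW values. An exact test of 3 against 3 libraries cannot go below p = 0.1, so sums are given without a test. A few genes held most of this level. The 5 most abundant held 47.4% ± 5.98 of it in CW and 44.8% ± 7.04 in LW, and the 20 most abundant held 90.0% ± 0.823 and 88.4% ± 1.75 (SD, n = 3 each).

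Total counts ran from 42927751 in CW replicate 1 to 84084375 in LW replicate 3. The leaf label was checked with 43 genes matched by words for enzymes of C4 photosynthesis and carbon fixation, of which 5 had no count. Isoforms with other roles were not removed from this list. The summed level of the 43 genes ran from 2622 to 3371 scaled FPKM in LW and from 6434 to 25958 in CW, where CW replicate 3 was the lowest. Of the 35 leaf genes tested, 3 were called lower and 0 higher, beside 2.40% lower and 2.84% higher over all genes. The summed leaf markers were thus lower in every LW library than in any CW library, as was the summed starch level. Within each group, however, the libraries stood in reverse order for these sums. CW replicate 3 had the lowest leaf sum of CW and the highest starch sum, 1449. LW replicate 1 had the lowest leaf sum, 2622, and the highest starch sum of LW, 1021. LW replicate 2 had the highest leaf sum of LW, 3371, and the lowest starch sum, 613. The part of the leaf markers in the differences below was not tested. In bulk tissue, fewer cells of a type and less RNA per cell cannot be told apart. Of 18 genes with zein in their name, which are storage protein genes of the endosperm, 15 had no count and the summed level was at most 1.59. The wider endosperm list of 29 genes, with opaque and floury names added, had 19 genes with no count, 0 called of 7 tested, and sums of 64.6 to 94.7 in CW and 109 to 143 in LW. A pollen list of 23 genes summed to 44.1 to 53.8 in CW and 34.8 to 52.6 in LW, and an embryo list of 10 genes to at most 3.77 in any library. Only 16 of the pollen genes and 2 of the embryo genes were tested, and 0 were called in either list.

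ADP-glucose pyrophosphorylase joins glucose-1-phosphate and ATP into ADP-glucose and is built of small and large subunits. Of the 5 genes that matched by their words, 2 were tested, 0 were called, and 3 annotated as small subunits had no count in any library. Brittle endosperm2 (Zm00001d050032), the small subunit known from the endosperm, measured 7.34, 9.80 and 7.86 scaled FPKM in CW replicates 1 to 3 and 5.70, 4.04 and 4.62 in LW. The LW values were all below the CW values, but the log2 difference of -0.80 ± 0.26 (SE) did not pass in edgeR (adjusted p = 0.116). Shrunken2 (Zm00001d044129), the large subunit of the endosperm, was near the lower end of detection in both groups. It measured 0.349, 0.269 and 0.764 in CW and 0.669, 0.802 and 0.712 in LW, with overlapping groups and an edgeR adjusted p of 0.481.

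The leaf forms of this enzyme are spelled ADP glucose, without a hyphen, in the table and so lie outside the 77 genes. They were added after their values had been seen. The small subunit named leaf1 (Zm00001d032385, chromosome 1, 224920493 to 224925108) measured 442, 435 and 314 scaled FPKM in CW and 148, 84.2 and 94.0 in LW. Every LW library was below every CW library, and the gene fell by 3.65-fold (log2 change -1.87 ± 0.34, SE; edgeR adjusted p = 0.0334). Of the fits that leave out 1 library, only that without CW replicate 3 kept this call, with edgeR adjusted p values of 0.0253 to 0.153 and log2 changes of -2.13 to -1.70. The large subunit named leaf1 (Zm00001d033910) measured 539, 517 and 241 in CW and 137, 68.0 and 130 in LW. Its groups did not overlap either, but its log2 change of -1.95 ± 0.44 missed the threshold in edgeR (adjusted p = 0.0523), and CW replicate 3 was the lowest CW library for both subunits. The gene named ADP glucose pyrophosphorylase2 (Zm00001d039131) measured 34.2, 23.9 and 17.7 in CW and 11.6, 16.6 and 10.2 in LW (edgeR adjusted p = 0.120). The small subunit named embryo 1 had a mean of 0.504 in CW and 0.532 in LW. The large subunit named leaf2 (Zm00001d019266) was listed at 0 in all CW libraries and at 0.191, 0.0910 and 0.141 in LW, and did not pass (edgeR adjusted p = 0.0813). The leaf1 small subunit was 20.4 to 60.2 times the level of brittle endosperm2 in each of the 6 libraries, and the leaf1 large subunit 84.8 to 1922 times that of shrunken2. Levels of different genes are compared here as FPKM, which is per length.

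**Figure D2:**
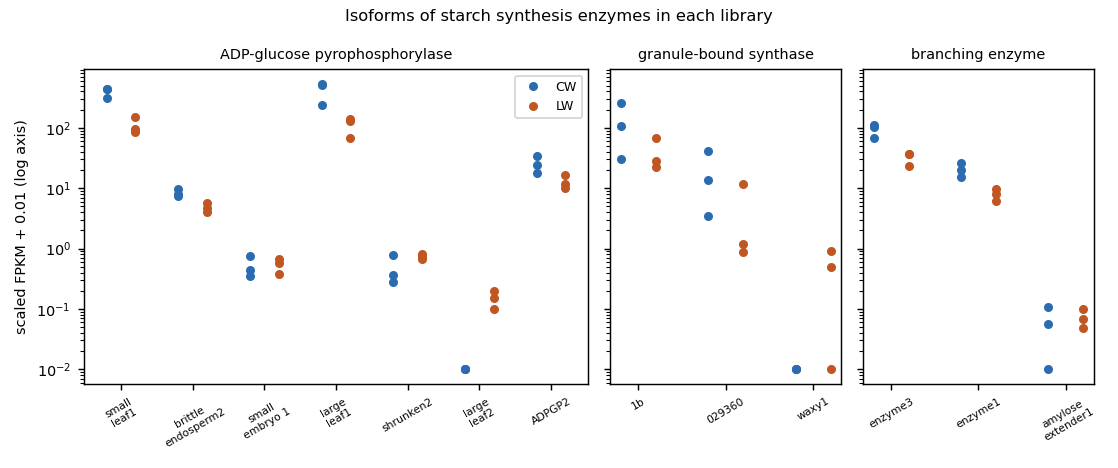
Scaled FPKM plus 0.01 on a log axis in each library for named forms of ADP-glucose pyrophosphorylase, granule-bound starch synthase and branching enzyme (blue CW, orange LW, 3 points each). Points at 0.01 are libraries where the gene is listed at 0; the leaf1 subunits, synthase 1b and branching enzyme3 lie above the forms named for the endosperm, embryo or kernel mutants in all 6 libraries.

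Starch synthases add glucose from ADP-glucose to growing chains. Of 14 genes 12 were tested and 0 were called. Their median log2 fold change was -0.79, 10 of the 12 values were negative, and 4 had no overlap of groups, all with LW lower. Those 4 are 33.3% of the genes tested in the class. Over all genes tested, 34.6% had no overlap in either direction and 14.9% had every LW value lower. Starch synthase 2 (Zm00001d052263) had the highest mean level of the class in this tissue. It measured 87.0, 69.5 and 89.9 scaled FPKM in CW and 130, 53.3 and 133 in LW. LW replicate 2 was the lowest of the 6 and the other LW libraries the highest, so the groups overlapped (log2 difference 0.36 ± 0.38, SE; edgeR adjusted p = 0.614).

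Starch synthase I (Zm00001d045261), a soluble form that lengthens short chains, measured 74.7, 66.6 and 68.8 in CW and 46.6, 14.4 and 12.6 in LW. All LW libraries were lower, but LW replicate 1 stood well above the other LW libraries, and the log2 difference of -1.51 ± 0.53 did not pass (edgeR adjusted p = 0.131). Starch synthase4 (Zm00001d010821), which in Arabidopsis takes part in starting granules, measured 20.4, 24.2 and 21.8 in CW and 13.1, 8.09 and 9.31 in LW. It was closest of the class to the threshold, with a log2 difference of -1.12 ± 0.26 and an edgeR adjusted p of 0.0554. Starch synthase IIIb-1 (Zm00001d026337) had means of 21.0 ± 5.23 in CW and 14.1 ± 3.18 in LW (SD, n = 3 each), with no overlap and an edgeR adjusted p of 0.273.

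Granule-bound starch synthase makes amylose. The form named 1b (Zm00001d019479) measured 106, 30.2 and 262 scaled FPKM in CW and 68.8, 22.6 and 28.3 in LW. The CW libraries spread more widely than the groups differed, and the groups overlapped (log2 difference -1.73 ± 0.79, SE; edgeR adjusted p = 0.227). A gene described as granule-bound starch synthase 1 (Zm00001d029360) had the same order of libraries within CW, with 13.6, 3.45 and 41.3, and with 11.6, 0.860 and 1.19 in LW (edgeR adjusted p = 0.336). In both genes CW replicate 3 was the highest library and LW replicate 1 the highest of its group. Waxy1 (Zm00001d045462), the granule-bound form of the endosperm, was not tested; it was listed at 0 in 4 libraries and at 0.910 and 0.492 in LW replicates 2 and 3. Because 6 genes carry this annotation or the waxy1 name, reads shared between near-identical copies would make single values uncertain.

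Branching enzymes cut a chain and rejoin it as a branch. Of 6 genes 4 were tested and 2 were called lower. That is 50% of a small class, beside 2.40% called lower over all genes tested. Starch branching enzyme3 (Zm00001d003817, chromosome 2, 60752443 to 60763179), described as branching enzyme IIa and known as the main form of the maize leaf, measured 113, 105 and 66.7 scaled FPKM in CW and 36.7, 23.2 and 36.2 in LW. It fell by 2.95-fold (log2 change -1.56 ± 0.33, SE; edgeR adjusted p = 0.0446), and no LW library reached any CW library. Starch branching enzyme1 (Zm00001d014844, chromosome 5, 65186102 to 65197475) carries a description as branching enzyme 2-2, which does not match its name. It measured 20.1, 15.6 and 26.6 in CW and 9.71, 6.20 and 8.09 in LW, again without overlap. It fell by 2.59-fold (log2 change -1.37 ± 0.30; edgeR adjusted p = 0.0480).

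Amylose extender1 (Zm00001d016684), the branching enzyme IIb of the endosperm, was at most 0.0982 in any library, and its groups overlapped. Branching enzyme3 was 400 to 2234 times its level in the 5 libraries where amylose extender1 was above 0. Starch branching enzyme III (Zm00001d011301) was also low. It measured 0.135, 0.293 and 0.218 in CW and 0.755, 0.901 and 0.492 in LW, so that every LW value was the higher, but it did not pass (log2 difference 1.71 ± 0.69; edgeR adjusted p = 0.182). The summed level of the 6 genes was 116 ± 20.1 in CW and 41.1 ± 8.89 in LW (SD, n = 3 each), of which branching enzyme3 was the largest share.

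Debranching enzymes remove misplaced branches during synthesis or open the glucan during breakdown. Of 9 genes 6 were tested, 0 were called and 2 had no count. Isoamylase-type starch debranching enzyme3 (Zm00001d020799), of the isoamylase type that acts mainly in leaf starch breakdown in Arabidopsis, measured 8.93, 14.7 and 10.0 scaled FPKM in CW and 3.30, 2.92 and 0.519 in LW. All LW values were lower, with a log2 difference of -2.32 ± 0.64 (SE) and an edgeR adjusted p of 0.0790. Pullulanase-type starch debranching enzyme1 (Zm00001d004438) measured 5.17, 5.69 and 1.40 in CW and 1.85, 1.79 and 1.90 in LW. CW replicate 3 lay below all LW libraries here (edgeR adjusted p = 0.209), and without that library the adjusted p was 0.0219. This gene overlaps another annotated gene, and whether counting used strand is not given, so its reads may be shared.

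Phosphoglucomutase interconverts glucose-1-phosphate and glucose-6-phosphate, in the plastid on the way to starch and in the cytosol on the way to and from sucrose. All 5 genes were tested and 0 were called, with a median log2 fold change of -0.14. Phosphoglucomutase2 (Zm00001d013428) had the highest mean of them, with 83.0, 30.7 and 21.2 scaled FPKM in CW and 61.9, 63.4 and 70.4 in LW. The LW libraries were close together and inside the CW range, which CW replicate 1 set at its top (log2 difference 0.54 ± 0.49, SE; edgeR adjusted p = 0.551). The gene described as the chloroplastic enzyme (Zm00001d044211) measured 30.7, 31.9 and 27.5 in CW and 11.7, 20.9 and 12.5 in LW. Its groups did not overlap, and its log2 difference of -0.999 ± 0.29 did not pass (edgeR adjusted p = 0.0843). Phosphoglucomutase1 (Zm00001d033746) had means of 54.0 ± 16.2 in CW and 33.0 ± 3.12 in LW (SD, n = 3 each), also without overlap (edgeR adjusted p = 0.183).

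Both dikinases that phosphorylate starch were tested and neither was called. Alpha-glucan water dikinase 1 (Zm00001d037059), which phosphorylates glucose units of amylopectin at the start of breakdown, measured 73.8, 58.5 and 50.2 scaled FPKM in CW and 35.4, 25.5 and 20.9 in LW. The lowest CW library was above the highest LW library, with a log2 difference of -1.16 ± 0.31 (SE) and an edgeR adjusted p of 0.0718. Phosphoglucan water dikinase (Zm00001d023792), which acts on glucan that the dikinase above has already phosphorylated, measured 12.0, 13.8 and 10.4 in CW and 9.02, 10.9 and 7.69 in LW. The groups overlapped through LW replicate 2 (log2 difference -0.39 ± 0.24; edgeR adjusted p = 0.370).

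Beta-amylases take maltose from chain ends. The class matched by this name was the largest, with 17 genes. It includes genes described as inactive and genes named as transcription factors, which are given below. Of the 17 genes 14 were tested, 2 were called lower and 0 higher. These calls are 14.3% of the genes tested in the class, beside 2.40% called lower over all genes tested. Of the 14 log2 fold changes 13 were negative, with a median of -0.62. Over all genes tested, 47.4% were negative and the median was 0.06. The summed level of the class was 497 ± 48.6 scaled FPKM in CW and 267 ± 84.0 in LW (SD, n = 3 each). A gene described as chloroplastic Beta-amylase 3 (Zm00001d009016, chromosome 8, 30232179 to 30236384) measured 18.6, 36.6 and 21.2 in CW and 7.76, 8.97 and 9.54 in LW. The LW libraries agreed closely and all lay below CW. It fell by 2.91-fold (log2 change -1.54 ± 0.32, SE; edgeR adjusted p = 0.0424). A gene described only as Beta-amylase (Zm00001d029164, chromosome 1, 60874573 to 60876557) measured 7.47, 5.48 and 8.99 in CW and 1.73, 1.16 and 0.739 in LW. It fell by 6.05-fold, the largest fold among the 5 called genes (log2 change -2.60 ± 0.43; edgeR adjusted p = 0.0303).

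The called genes were not the abundant ones of the class. Another Beta-amylase 3 gene (Zm00001d029983) had the highest mean level of all 77 genes, with 190, 168 and 175 scaled FPKM in CW and 179, 102 and 130 in LW. LW replicate 1 lay within the CW range, and the log2 difference was -0.38 ± 0.29 (SE; edgeR adjusted p = 0.469). The gene named beta amylase2 (Zm00001d027619) measured 133, 201 and 194 in CW and 78.0, 23.8 and 38.1 in LW. Its groups did not overlap and its log2 difference of -1.92 ± 0.47 was larger than that of the called Beta-amylase 3 gene, but it missed the threshold (edgeR adjusted p = 0.0616). The remaining Beta-amylase 3 gene (Zm00001d047077) had means of 72.9 ± 18.7 in CW and 47.6 ± 18.6 in LW (SD, n = 3 each), with overlap. Thus 1 of 3 genes with that description passed the test, and whether their fold changes differ from each other was not tested.

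The beta-amylase with the largest log2 difference did not pass. Zm00001d014083 measured 0.203, 5.99 and 7.67 in CW and 0.669, 0.339 and 0.879 in LW. CW replicate 1 was below every LW library while the other CW libraries were far above them (log2 difference -2.88 ± 1.10, SE; edgeR adjusted p = 0.161), and without CW replicate 1 the adjusted p was 0.0498. Inactive beta-amylase 9 (Zm00001d029154), whose Arabidopsis counterpart lacks catalytic activity, lies 75870 bases from the called Zm00001d029164 on chromosome 1. It measured 1.46, 1.63 and 3.10 in CW and 0.583, 0.537 and 0.431 in LW, with no overlap and an edgeR adjusted p of 0.0789. The other 3 genes described as inactive beta-amylase 9 had no count. A pair named BZR-transcription factor 4 and 5, like the beta-amylase-like transcription factors of Arabidopsis, did not pass. BZR-transcription factor 4 overlaps another beta-amylase gene on the same strand, so its values, from 0 in CW replicate 2 to 8.43 in LW replicate 1, are uncertain.

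**Figure D3:**
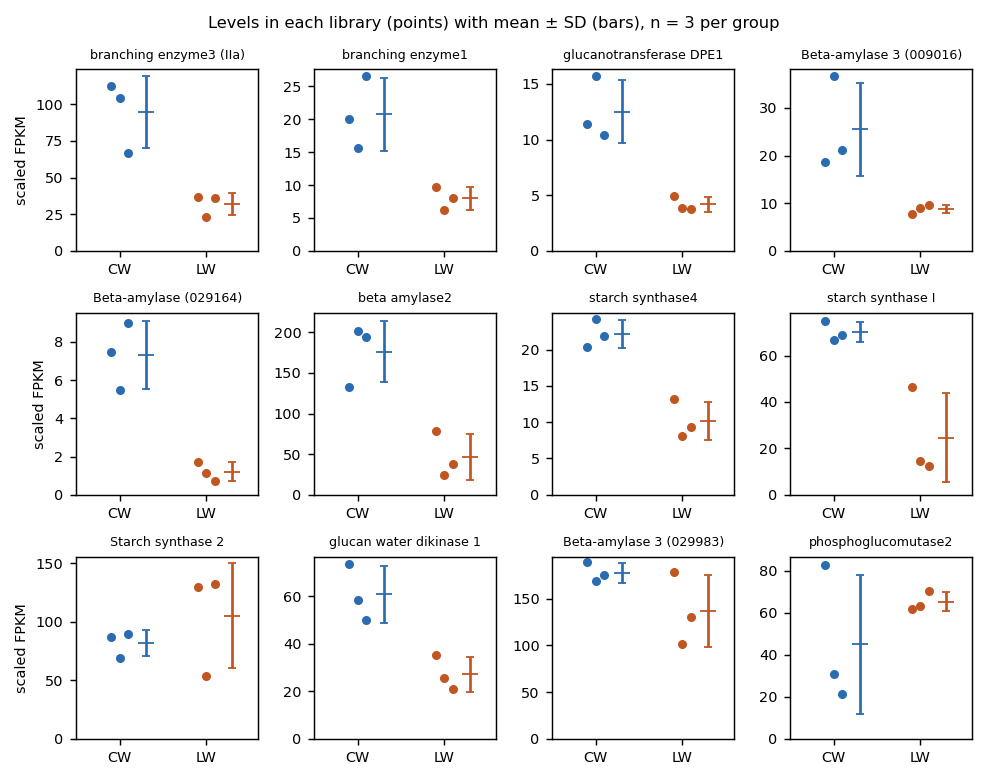
Scaled FPKM in each library (points, from replicate 1 at the left to 3 at the right) with mean and SD (bars, n = 3) for 12 starch genes, each on its own axis from 0. The first 5 panels are the genes called lower in LW; beta amylase2, starch synthase4, starch synthase I and glucan water dikinase 1 also have no overlap but did not pass, and in the last row Starch synthase 2, Beta-amylase 3 (Zm00001d029983) and phosphoglucomutase2 overlap.

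Alpha-amylases cut glucan chains internally. Of 7 genes 6 were tested and 0 were called, and theirs was the only class with a positive median, 0.35. Probable alpha-amylase 2 (Zm00001d003851) had the highest mean, with 16.5, 11.8 and 6.13 scaled FPKM in CW and 10.4, 9.05 and 12.3 in LW. The LW values lay inside the CW range (log2 difference -0.12 ± 0.37, SE; edgeR adjusted p = 0.877), and the sign turned under 4 other settings of scale or test and when LW replicate 2 or CW replicate 1 was left out. Chloroplastic alpha-amylase 3 (Zm00001d043662) had means of 4.49 ± 0.0942 in CW and 5.80 ± 2.09 in LW (SD, n = 3 each), with overlap. An Alpha-amylase 1 gene (Zm00001d020351) measured 0.845, 0.339 and 0.218 in CW and 1.51, 1.14 and 0.967 in LW. Every LW value was higher, but the log2 difference of 1.35 ± 0.75 did not pass (edgeR adjusted p = 0.316). It lies 33535 bases from another Alpha-amylase 1 gene on chromosome 7, and copies of this kind may share reads.

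DPE1 joins short glucans left by beta-amylase into longer chains inside the plastid, whereas DPE2 takes glucose from maltose in the cytosol, and glucan phosphorylases release glucose-1-phosphate from chain ends. Of these 7 genes 6 were tested and 1 was called lower. That is 16.7% of the class tested, beside 2.40% called lower over all genes tested. DPE1 (Zm00001d022206, chromosome 7, 172841224 to 172852483) measured 11.4, 15.7 and 10.4 scaled FPKM in CW and 4.95, 3.82 and 3.76 in LW. The lowest CW library was above the highest LW library. It fell by 2.99-fold (log2 change -1.58 ± 0.28, SE; edgeR adjusted p = 0.0314).

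The DPE2 gene with the highest level (Zm00001d022510) measured 42.7, 41.2 and 25.0 in CW and 29.1, 6.88 and 21.5 in LW. LW replicate 1 was above CW replicate 3, so the groups overlapped (log2 difference -0.92 ± 0.52, SE; edgeR adjusted p = 0.324). The other 3 DPE2 genes were at most 0.387 in any library. Starch phosphorylase2 (Zm00001d042842) measured 79.8, 90.2 and 48.9 in CW and 47.3, 26.7 and 31.0 in LW. The groups came close without overlap, with a log2 difference of -1.06 ± 0.35 and an edgeR adjusted p of 0.114. Starch phosphorylase1 (Zm00001d034074) had means of 14.8 ± 5.19 in CW and 13.0 ± 4.19 in LW (SD, n = 3 each), with overlap and an edgeR adjusted p of 0.806.

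Maltose leaves the chloroplast through the maltose excess transporter. Of 5 genes with that name only Maltose excess protein 1-like (Zm00001d002423) had any count. It measured 31.0, 35.9 and 11.7 scaled FPKM in CW and 19.3, 11.6 and 14.7 in LW. CW replicate 3 was level with the lowest LW library, and the log2 difference of -0.79 ± 0.43 (SE) did not pass (edgeR adjusted p = 0.315). The other 4, described as chloroplastic maltose excess protein 1, were at 0 in all 6 libraries.

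Set side by side, the synthesis classes (pyrophosphorylase, synthases and branching enzymes) had 18 tested genes with 2 called lower and a median log2 fold change of -0.78. The breakdown classes (glucan phosphorylation, amylases, glucanotransferases, phosphorylases and maltose transport) had 29 with 3 called lower and a median of -0.52. The difference between the classes was not tested. Of the genes whose description names a plastid, 21 were tested with 3 called lower and a median of -0.39, and of the rest 37 were tested with 2 called lower and a median of -0.71. Called genes were 11.1% of the synthesis, 10.3% of the breakdown, 14.3% of the plastid and 5.41% of the remaining genes tested. Over all genes tested, 2.40% were called lower and the median was 0.06. Each of these shares rests on 2 or 3 calls.

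A further 76 genes of starch and sugar phosphate metabolism were matched by words for translocators, sucrose enzymes, pyrophosphatases, trehalose phosphate enzymes and kernel mutants. Of these 49 were tested, 4 were lower, 1 was higher and 44 did not pass, which is 10.2% called beside 5.23% of all genes. Their median log2 fold change was -0.06. The triose phosphate translocator exports fixed carbon from the chloroplast to the cytosol. Of the 4 lower genes, 3 were of this family. The family was singled out with these calls known, and the share of its genes that passed was not worked out. TPT (Zm00001d039258) measured 1403, 1567 and 820 scaled FPKM in CW and 343, 435 and 297 in LW (3.53-fold lower; edgeR adjusted p = 0.0424). Zm00001d046001 was 6.01-fold lower (edgeR adjusted p = 0.0317) and Zm00001d009028 was 6.44-fold lower (edgeR adjusted p = 0.0350).

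Soluble inorganic pyrophosphatase 2 (Zm00001d017770) fell by 5.84-fold (edgeR adjusted p = 0.0450); enzymes of this kind remove the pyrophosphate that ADP-glucose pyrophosphorylase releases. It measured 425, 667 and 187 in CW and 99.5, 43.2 and 76.4 in LW. For this gene and the 3 translocators, CW replicate 3 was the lowest CW library and still above every LW library. When 1 library was left out, their calls held only without CW replicate 3, and the log2 changes stayed between -2.05 and -1.63 for TPT, -2.92 and -2.35 for Zm00001d046001, -3.06 and -2.43 for Zm00001d009028 and -2.90 and -2.07 for the pyrophosphatase.

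A glucose-6-phosphate/phosphate translocator (Zm00001d021653) moved the other way. This kind of carrier brings glucose-6-phosphate into plastids, chiefly of tissues that do not photosynthesise. It measured 1.23, 1.09 and 0.851 in CW and 15.0, 10.6 and 53.3 in LW, so that LW replicate 3 was far above the other LW libraries and all LW libraries were above CW. It was 24.8-fold higher in LW (log2 change 4.63 ± 0.69, SE; edgeR adjusted p = 0.0243). Without LW replicate 3 it was 12.0-fold higher, with an edgeR adjusted p of 0.0939, and only the fit without CW replicate 3 kept the call when 1 library was left out. A more abundant gene of the same description (Zm00001d006511) had means of 115 ± 89.1 in CW and 352 ± 272 in LW (SD, n = 3 each), with overlap and an edgeR adjusted p of 0.309. Sugary2 (Zm00001d037234), the starch synthase IIa of the endosperm, measured 0.428, 1.74 and 0.633 in CW and 2.31, 5.56 and 7.45 in LW. Its LW values were all higher, but it did not pass (log2 difference 2.45; edgeR adjusted p = 0.0773). Sugary1 (Zm00001d049753), an isoamylase of the endosperm, had means of 7.92 ± 0.918 in CW and 4.07 ± 2.31 in LW.

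**Figure D4:**
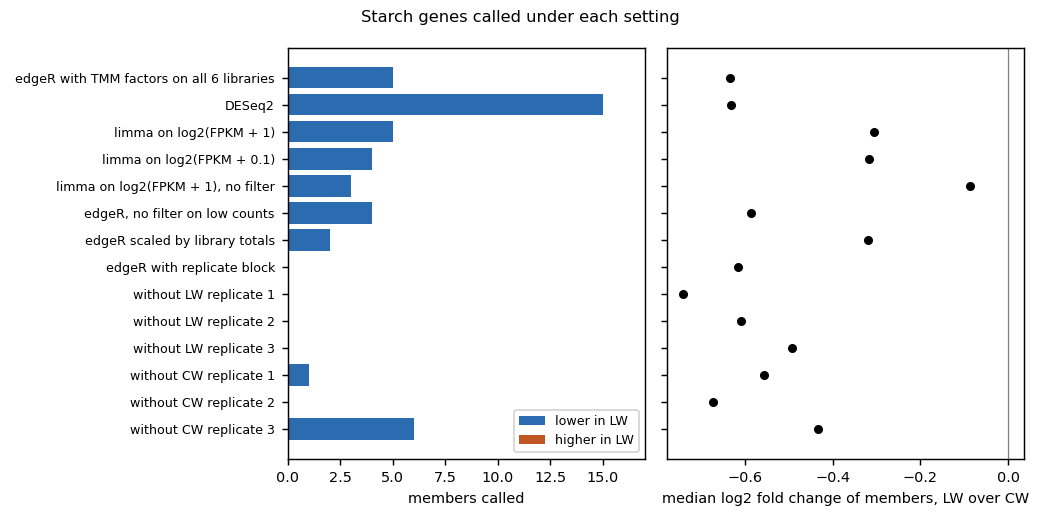
Number of the starch genes called lower in LW (bars, left) and their median log2 fold change (points, right) under the edgeR test on all 6 libraries and 13 other settings. No gene was called higher under any of them, counts ran from 0 to 15, and the median was negative throughout.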

How the data were processed

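Paired-end RNA-seq of leaf RNA was deposited for 3 LW and 3 CW samples, grouped by their titles; the source name of CW replicate 2 gives number 3, and its title was followed. The RNA selection step is unclear, since the extraction text in the labels mentions both poly(A) selection and a poly(A)- fraction, and an adipose sample. Per the submitters' processing notes, FastQC 0.10.1, HISAT2 2.0, StringTie 1.3.4 and edgeR were used, with roles not stated. The sources used here name no genome build, annotation or strand setting, so positions are as deposited.

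The authors deposited 1 table of FPKM values and counts, each by gene and library. Although whole, 28.6% to 31.4% of the deposited counts from 1 to 40 are multiples of 4, so they were treated as estimated counts and no counting interval is given. FPKM and counts are proportional (99% of values within 0.0947% over 3125 abundant genes). Scaled FPKM is the deposited FPKM times a factor per library, 0.827 to 0.956 in LW and 1.09 to 1.17 in CW, taken from the TMM scaling.

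Counts entered edgeR 4.0.16 (R 4.3.3; TMM, filterByExpr, glmQLFit and glmQLFTest, group only) with Benjamini-Hochberg adjustment over the 24704 genes kept. Folds were taken back from the fitted log2 values, and each SE is the fitted log2 value over the square root of F. Alternatives were DESeq2 1.42.0, edgeR with no filter, with library totals or with a replicate block, and leaving out each library. Others were limma 3.58.1 on log2(FPKM + 1) or log2(FPKM + 0.1) with genes of mean FPKM at least 0.5. A last limma fit used log2(FPKM + 1) with no filter. All limma fits used the deposited FPKM without the TMM factors, which edgeR with library totals also left out.

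Members and lists were chosen with earlier results of these data known, so their counts are descriptions. In each role the rule named called genes, the most abundant gene, the largest change with a level of at least 1, and any gene named for a tissue; any further gene was picked with its values known. Sequences are not shown.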

Additional observations from a re-analysis of the deposited data

How the results depend on the processing

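The direction of the list held under every setting run, whereas the number of calls did not. Lower calls were 5 in edgeR, 15 in DESeq2, 5 and 4 in limma with a pseudocount of 1 and 0.1, 3 in limma with no filter, 4 in edgeR with no filter and 2 with library totals. Over all genes the lower calls were 592, 2036, 576, 536, 372, 565 and 346 in that order, and the higher calls 701, 2421, 2371, 2023, 1779, 692 and 1425. Higher calls among the starch genes were 0 in all. Leaving out 1 library gave 0 to 6 lower calls and medians from -0.74 to -0.43, with 0 to 1287 lower and 0 to 1678 higher calls over all genes. The median was -0.63 with DESeq2, -0.31, -0.32 and -0.086 in the 3 limma fits (all genes 0.29, 0.40 and 0.17) and -0.32 with library totals, a scaling that moved the median of all genes from 0.06 to 0.42. Deviations from the group means in same-numbered libraries had correlations of -0.03, 0.00078 and -0.23. With 3 libraries per group and the number of CW replicate 2 in doubt, these values cannot show whether the libraries were paired. With the replicate block edgeR called 0 starch genes, with 14 lower before adjustment, and none of the called ADP glucose and pathway genes. Among all genes that fit called 2 higher and 1 lower. Settings on membership, chosen after seeing the data, gave 6 lower calls with the 5 ADP glucose genes, 5 without genes that overlap another, and 5 with a mean level of at least 1. Signs turned for probable alpha-amylase 2 (Zm00001d003851; 0.29, 0.33 and 0.29 in limma, 0.24 with totals, -0.42 to 0.24 leaving out 1 library), starch phosphorylase1 (Zm00001d034074; 0.17, 0.18 and 0.17 in limma, 0.17 with totals, -0.45 to 0.070 leaving out 1 library) and amylose extender1 (Zm00001d016684; -0.26 to 1.33 leaving out 1 library), none of them called; the cause was not tested. Of 13 alternatives, DPE1 and Beta-amylase Zm00001d029164 were called in 7, branching enzyme3 in 6, Beta-amylase 3 Zm00001d009016 in 3 and branching enzyme1 in 2. Counts are estimates, so no counting interval limits the low genes.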
